A study of Mus musculus with 24 samples.

Results

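The genes described here are the ligands and receptors of the tumour necrosis factor (TNF) superfamily and the TNF receptor-associated factors (TRAFs) that carry their signals. They were taken by symbol: protein-coding mouse genes named Tnfsf, Tnfrsf or Traf with a number, plus Lta, Ltb, Ltbr, Fas, Fasl, Cd27, Cd40, Cd40lg, Cd70, Eda and Edar, with Tnfsf11 (RANK ligand) left out. The rule matched 48 genes of the GENCODE M21 annotation, and 35 of them were among the 38321 gene IDs of the count tables: 11 ligands, 19 receptors and 5 TRAFs. The other 13 were not analysed here, among them the Fas receptor, the lymphotoxins Lta and Ltb, the RANK ligand decoy osteoprotegerin (Tnfrsf11b) and the BAFF receptor (Tnfrsf13c).

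The study asked how loss and replacement of estrogen alter gene expression around teeth with periodontitis, in poly(A) RNA-seq libraries of gingiva and of the dentoalveolar complex (DAC, the jaw bone with its teeth, freed of soft tissue). All mice were wild-type C57BL/6J females, 11 weeks old at the start, and all had a silk ligature tied round the second molars of both sides of the upper jaw on day 7, which brings on periodontitis, and were killed on day 14. Sham mice had a sham operation on day 0 and vehicle from day 4. OVX mice had both ovaries removed on day 0 and the same vehicle, and OVXE2 mice had the ovaries removed and received 1 µg of estradiol benzoate a day under the skin, in 100 µL of corn oil, from day 4. Each of the 6 groups of tissue and treatment had 4 libraries, 24 in all, and no mouse without a ligature was included.

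Genes of chromosomes 12, 13, 15 to 19 and Y, of the mitochondrial genome and of parts of chromosomes 10, 11 and 14 were not analysed here, so totals, shares of counts and statements on all genes refer to the remaining genes, and marker lists to their listed members (5 of 10 for stratified epithelium, 3 of 6 for plasma cells). Total gene counts were 18598422 to 26001342 per gingival library and 14771830 to 29248358 per DAC library. Markers of the 2 tissues went with the labels: genes of stratified epithelium took 7.51 to 10.3% of counts in gingiva against 0.0899 to 0.625% in the DAC, and genes of osteoblasts and osteocytes took 0.532 to 1.12% in the DAC against 0.00603 to 0.0156% in gingiva. Nasal gland genes took 0.0796 to 1.05% of counts in gingival libraries and 0.209 to 13.4% in DAC libraries, highest in DAC OVX replicate 1. Brain neuron genes were highest in the DAC Sham replicates 2 and 4, OVX replicate 1 and OVXE2 replicate 2 (0.01501 to 0.0410%).

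TNF superfamily ligands are mostly trimeric proteins on the cell surface or shed from it, and they cluster receptors that either recruit TRAF adaptors and activate NF-kB and MAP kinases or, where the receptor has a death domain, start apoptosis. In inflamed periodontal tissue the family is known for TNF itself and for the RANK pathway that forms osteoclasts. Other pairs act on B cells (BAFF and APRIL with TACI) or costimulate T cells (OX40, CD27, CD30, CD137 and GITR with their ligands).

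The type 1 TNF receptor Tnfrsf1a had the highest level of the 35 genes in both tissues. Levels are compared between genes as CPM per kb (counts scaled to library size and divided by exon length in kilobases), with all 24 libraries scaled together. Tnfrsf1a had 94.9 ± 6.83 CPM per kb in the DAC and 94.6 ± 3.92 in gingiva (SD, n = 12 each). The next in the DAC were the ectodermal receptor Tnfrsf19 (TROY) at 52.1 ± 4.23, the lymphotoxin beta receptor Ltbr at 46.1 ± 6.68, the type 2 TNF receptor Tnfrsf1b at 23.1 ± 2.91 and the ligand Tnfsf12 (TWEAK) at 11.5 ± 2.59. The next in gingiva were Ltbr at 31.6 ± 2.17, Tnfrsf19 at 12.1 ± 0.995, the adaptor Traf6 at 11.7 ± 1.69 and Tnfrsf1b at 7.28 ± 1.69. The top 3 genes held 63.9% of the level summed over the 35 genes in the DAC and 68.2% in gingiva. In the DAC, Tnfrsf19 and Ltbr did not differ beyond their SDs, and in gingiva Tnfrsf19 and Traf6 did not, while Tnfrsf1a stood above the gene after it in both.

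Several ligands were at the bottom of the order, together with Edar in the DAC (0.144 ± 0.0591). Cd40lg, Tnfsf4 (OX40 ligand), Tnfsf15 and Fasl lay between 0.0889 and 0.183 CPM per kb in both tissues, and Tnfsf18 (GITR ligand) was at 0.0832 ± 0.0628 in the DAC and 0.280 ± 0.109 in gingiva. Cd40lg was at 0 counts in 1 library of the DAC and 2 of gingiva, and Tnfsf4 and Tnfsf18 were each at 0 in 1 library of the DAC. In all, 11 genes in the DAC and 16 in gingiva were under 1 CPM per kb. Of the 34 pairs of genes next to each other in the order, 29 in each tissue did not differ beyond their SDs, so most of the order below the top is not resolved. Cd40lg did not pass the filter on low counts in either tissue, Fasl and Tnfsf4 did not in gingiva and Tnfsf18 did not in the DAC, which left 32 genes tested within gingiva and 33 within the DAC.

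**Figure D1:**
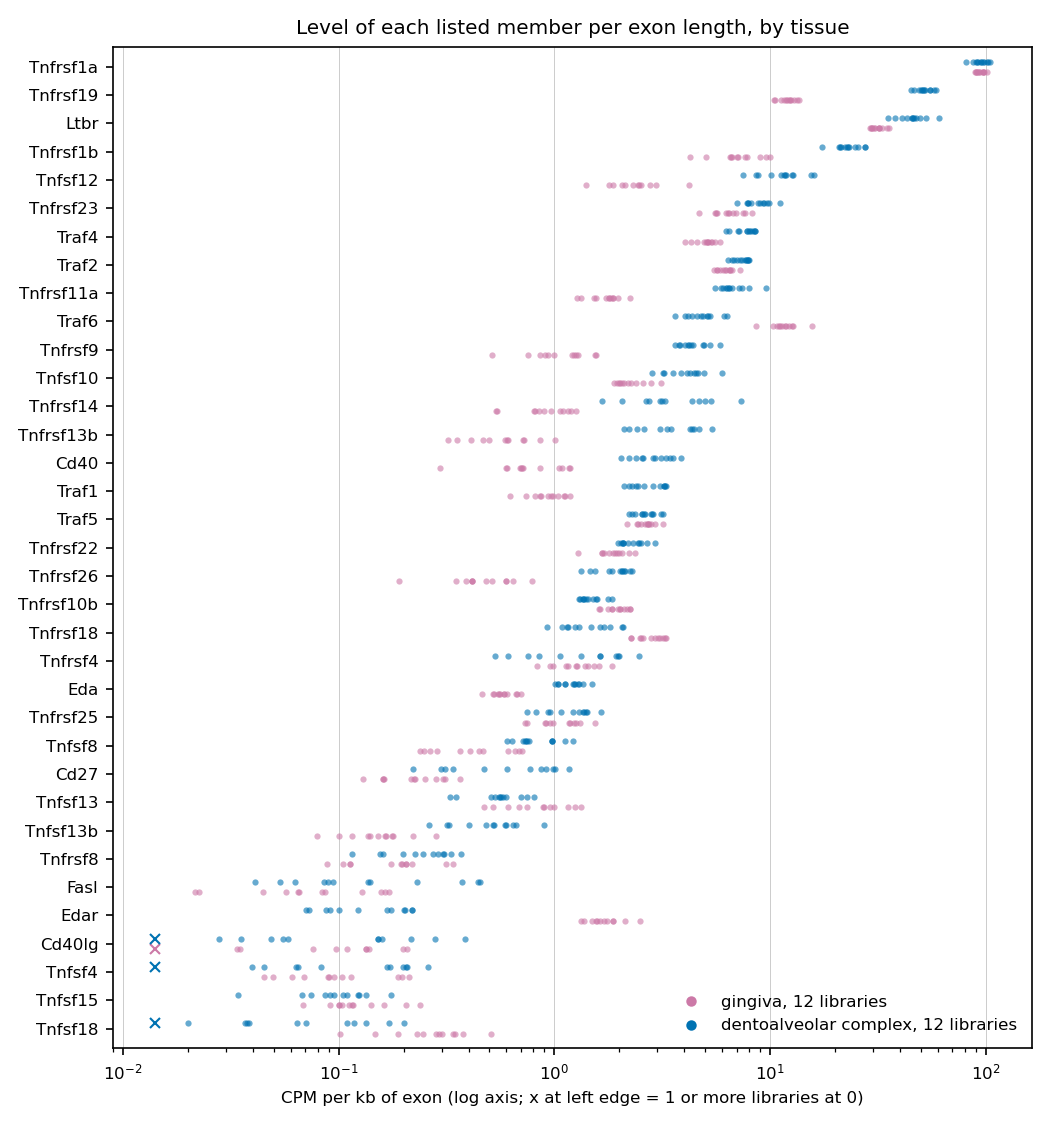
Level of the 35 genes in CPM per kb of exon (log axis), ordered by their mean in the dentoalveolar complex, with each of the 12 libraries of a tissue as a point and a cross at the left edge where 1 or more libraries were at 0. Tnfrsf1a is highest in both tissues at about the same level (94.9 and 94.6), Edar lies far to the right in gingiva, and Tnfrsf19, Tnfsf12 and Tnfrsf13b lie to the right in the dentoalveolar complex.

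Ovariectomized mice given estradiol had, in the DAC, lower levels of a ligand and receptor pair that acts on B cells and of a costimulatory receptor. The pair was TACI (Tnfrsf13b), which binds BAFF and APRIL on B cells, and its ligand BAFF (Tnfsf13b). The costimulatory receptor was CD27 (Cd27), carried by T cells among others. These 3 of the 33 genes tested fell (9.09%) and none rose in edgeR's quasi-likelihood test with Benjamini-Hochberg adjustment over all 13617 genes, where 2.13% of all genes passed and 1.45% fell. Values below are CPM scaled within a tissue, in the order of replicates 1 to 4.

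Tnfrsf13b was at 12.7, 12.9, 16.3 and 13.8 CPM in OVX, at 6.04, 7.04, 6.88 and 7.54 in OVXE2, and at 12.8, 10.003, 10.5 and 9.34 in Sham. Every OVXE2 library lay below every OVX and every Sham library, while OVX and Sham overlapped through Sham replicate 1. The fall from OVX was 2.03-fold (log2 change -1.02 ± 0.13 SE, edgeR adjusted p = 0.00198) and it kept its call without each of the 12 libraries (adjusted p 0.00155 to 0.00876).

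Cd27 was at 2.36, 2.09, 2.94 and 1.86 CPM in OVX, at 0.703, 0.745, 0.855 and 0.526 in OVXE2, and at 2.51, 1.15, 2.28 and 1.503 in Sham. Again no OVXE2 library reached the lowest of the other groups, and Sham was the most spread. The fall from OVX was 3.26-fold (log2 change -1.70 ± 0.29, edgeR adjusted p = 0.00943; 0.00656 to 0.0412 without each library). These values rest on 15 to 72 counts a library in those 2 groups.

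Tnfsf13b was at 4.55, 3.69, 4.41 and 6.42 CPM in OVX, at 1.83, 2.23, 3.01 and 2.28 in OVXE2, and at 4.85, 4.30, 3.54 and 3.85 in Sham. OVXE2 lay below both other groups without overlap, and OVX replicate 4 was the highest library. The fall from OVX was 2.04-fold (log2 change -1.03 ± 0.22, edgeR adjusted p = 0.0331), but this call was lost without any of 8 libraries: Sham replicates 3 and 4, OVX replicates 1, 3 and 4, and OVXE2 replicates 1, 2 and 4 (adjusted p up to 0.113). It was also lost with the replicate number as a block. Of the 3 calls, only that of Tnfrsf13b was kept without the 4 libraries richest in brain neuron genes. Among the 8 DAC libraries with the higher share of reads on the uncounted strand, 0 of the 3 were called (edgeR adjusted p 0.0576 for Tnfrsf13b, 0.224 for Cd27 and 0.252 for Tnfsf13b), and all 3 log2 changes kept their sign. Over all alternatives the log2 change stayed between -1.18 and -0.93 for Tnfrsf13b, -1.81 and -1.57 for Cd27 and -1.20 and -0.85 for Tnfsf13b.

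**Figure D2:**
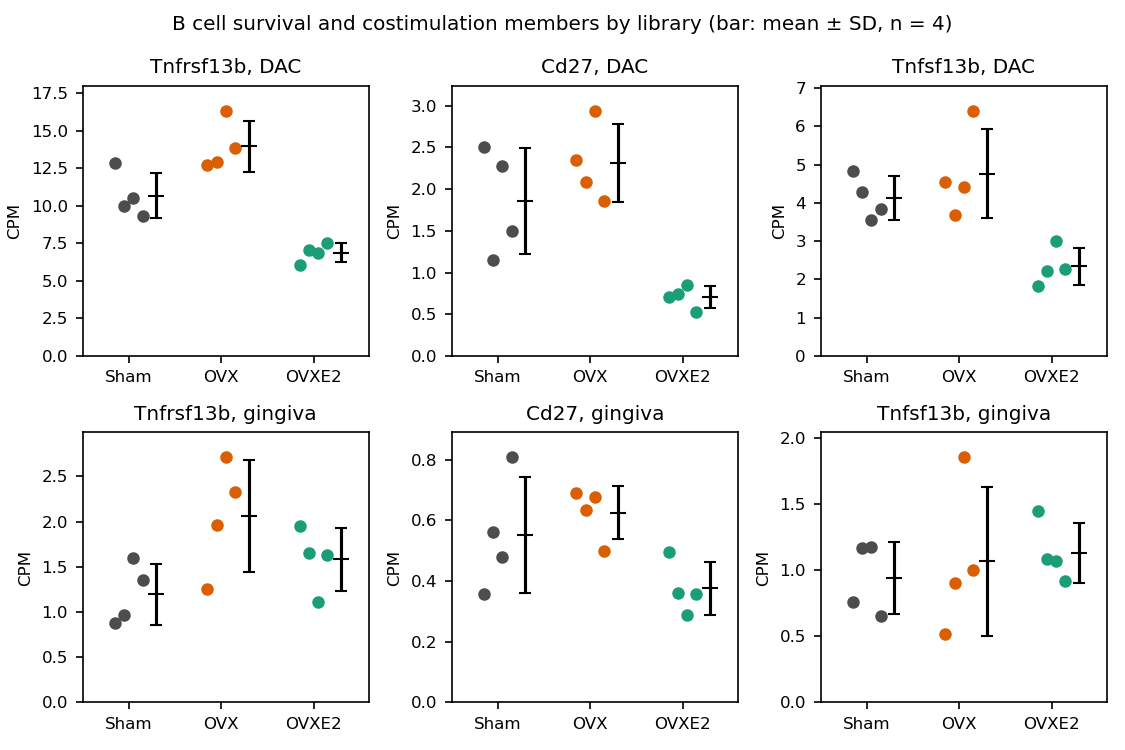
CPM of Tnfrsf13b, Cd27 and Tnfsf13b in each library of the dentoalveolar complex (DAC, top) and of gingiva (bottom), with the mean ± SD of 4 libraries beside the points and axes from 0. In the DAC the 4 OVXE2 points lie below all OVX and Sham points for each gene, while in gingiva only the OVX and OVXE2 points of Cd27 are apart.

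Markers of several blood cell types were lower in the same DAC libraries. The 9 listed B lineage genes together took 0.0155 to 0.0264% of counts in OVX, 0.00290 to 0.00428% in OVXE2 and 0.00875 to 0.0135% in Sham, with none of the 9 at 0 in any DAC library. Of these 9 genes, 7 fell with estradiol against OVX (among them Vpreb3, Cd79a, Cd79b, Pax5, Blk and Cd22; list median -2.41 against 0.02 over all genes), as did 2 of 11 T cell genes (median -1.03), 2 of 7 NK cell genes (-1.75) and 3 of 7 dendritic cell genes (-0.81). Among myeloid lists, 4 of 8 neutrophil genes (-0.95) and 1 of 6 monocyte and macrophage genes (-0.04) fell, while 4 of 7 endothelial genes rose (0.51) and 0 of 3 plasma cell genes passed. Of all 13617 genes tested there, 1.45% fell and 0.676% rose. All 7 nasal gland genes had lower means in OVXE2 than in OVX and none passed (median -0.94). In bulk libraries, fewer cells of a type and less RNA per cell cannot be told apart, and the part of cell numbers in the falls of the 3 genes was not tested.

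The promoters of the 3 genes that fell are shown as the bases before their annotated starts, from RefSeq on GRCm38.p6, since they moved together in the same libraries. On GRCm38 the genes lie at chr11:61126755-61149372 (Tnfrsf13b), chr6:125232622-125237010 (Cd27, overlapping Vamp1 on the opposite strand) and chr8:10006467-10039072 (Tnfsf13b). The windows lie at chr11:61126505-61126754 (plus strand, Tnfrsf13b), chr6:125237028-125237277 (minus strand, Cd27) and chr8:10006217-10006466 (plus strand, the more upstream of 2 starts of Tnfsf13b), each 250 bases up to the start. Capitals mark a nuclear receptor half-site (AGGTCA) and an ETS core (GGAAGT), read on both strands.

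Tnfrsf13b: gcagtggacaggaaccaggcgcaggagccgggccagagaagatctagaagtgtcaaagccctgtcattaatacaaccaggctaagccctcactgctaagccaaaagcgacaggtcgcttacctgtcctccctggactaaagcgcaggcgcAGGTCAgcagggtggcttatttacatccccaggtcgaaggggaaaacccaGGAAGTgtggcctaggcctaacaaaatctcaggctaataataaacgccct
Cd27: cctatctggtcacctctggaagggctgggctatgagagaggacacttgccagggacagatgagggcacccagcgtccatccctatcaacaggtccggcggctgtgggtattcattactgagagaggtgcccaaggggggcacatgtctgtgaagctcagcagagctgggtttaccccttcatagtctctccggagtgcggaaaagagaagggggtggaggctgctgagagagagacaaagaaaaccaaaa
Tnfsf13b: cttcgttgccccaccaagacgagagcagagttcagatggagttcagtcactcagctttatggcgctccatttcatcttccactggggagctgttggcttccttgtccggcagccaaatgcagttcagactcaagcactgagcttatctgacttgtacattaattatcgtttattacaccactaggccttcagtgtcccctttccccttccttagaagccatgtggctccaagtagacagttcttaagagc

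Tnfrsf13b holds both motifs, while the Cd27 and Tnfsf13b windows hold neither. Of the 35 genes, 28 matched a RefSeq promoter. In the 250 bases before the start, the full estrogen response element (GGTCA and TGACC with 3 bases between), a kappaB site (GGGA, any base, TTTCC) and an EBF1 site (TCCC and GGGA with 2 bases between), read on both strands, were in none of the 28, against 0.0666%, 0.414% and 0.914% of 27025 mouse genes with a promoter in the table. The half-site was in 2 of the 28 (Tnfrsf13b and Tnfrsf25; 15.8% of all these genes) and the ETS core in 7 (22.2%). A PU.1 site (GAGGAAGT), whose letters include the ETS core, was in Tnfsf18 alone (2.79%). A match of letters is a description of the window and not evidence of binding.

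Among the other DAC genes, RANK (Tnfrsf11a), the receptor on osteoclast precursors, was at 34.0, 38.5, 38.3 and 40.0 CPM in OVX and at 48.7, 59.1, 41.0 and 43.9 in OVXE2. The OVXE2 values all lay above the OVX values, with OVXE2 replicate 2 the highest, but the log2 difference of 0.35 ± 0.11 did not pass (edgeR adjusted p = 0.187). Against Sham, RANK differed by 0.18 in OVXE2 and by -0.17 in OVX, both with overlap and without passing. All 7 listed osteoclast genes were higher in OVXE2 than in OVX (median 0.40) and lower in OVX than in Sham (median -0.28), and none passed. These comparisons share the OVX libraries. GITR (Tnfrsf18), carried by regulatory T cells, was at 3.23, 2.05, 2.78 and 2.86 CPM in OVX and 1.93, 1.45, 1.89 and 1.68 in OVXE2 (log2 difference -0.65 ± 0.22, adjusted p = 0.246), again without overlap. Of the 6 costimulatory receptors, all 6 had a lower mean in OVXE2 than in OVX and 1 (Cd27) passed (median -0.55). All 6 were also lower in OVXE2 than in OVX in gingiva, with none passing (median -0.40).

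The ligand of Fas, Fasl, which kills target cells of cytotoxic lymphocytes, was at 0.878, 0.0819, 0.940 and 0.466 CPM in OVX and at 0.105, 0.186, 0.180 and 0.175 in OVXE2. OVX replicate 2 lay below the OVXE2 libraries and the log2 difference of -1.84 ± 0.68 did not pass (edgeR adjusted p = 0.293). Over the 33 genes, 11 had a higher and 22 a lower mean with estradiol than in OVX, with a median log2 difference of -0.14 against 0.02 over all genes. At an unadjusted p under 0.05 there were 10 of the 33, against 10% of all genes. Groups did not overlap for 5 genes in the lower direction (3.51% of all genes) and 1 in the higher (3.22%).

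Against Sham, the OVXE2 libraries of the DAC gave 2 called genes of 33 (6.06%), Tnfrsf13b and Cd27, both lower, where 1.05% of all genes passed and 0.661% were lower. This comparison shares its OVXE2 libraries with the one above. Tnfrsf13b was 1.55-fold lower (log2 change -0.64 ± 0.13, edgeR adjusted p = 0.0457) and Cd27 2.64-fold lower (-1.40 ± 0.29, adjusted p = 0.0461). Tnfsf13b differed by -0.82 ± 0.22 and did not pass (adjusted p = 0.148). At an unadjusted p under 0.05 there were 8 of the 33 (8.77% of all genes). Groups did not overlap for 6 genes, all lower in OVXE2 (2.78% of all genes, and 2.63% were higher): Tnfrsf13b, Cd27, Tnfsf13b, Tnfsf13, Tnfrsf9 and Tnfrsf1b. Both calls lay close to the threshold. That of Tnfrsf13b was lost without each library other than OVX replicate 3 (adjusted p up to 0.155), and that of Cd27 without each other than Sham replicate 2 (up to 0.160). Neither was called by limma-voom, or with the replicate number as a block, while DESeq2 called 3 genes.

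Between OVX and Sham in the DAC, no gene of the 33 passed (0.0% of all genes passed, edgeR, smallest adjusted p 0.874; 0 also by DESeq2 and limma-voom). At an unadjusted p under 0.05 there were 2, against 3.21% of all genes, and groups overlapped for all 33 (1.66% of all genes were higher and 1.26% lower without overlap). Tnfrsf13b was higher by 0.38 ± 0.13 on the log2 scale in OVX and CD137 (Tnfrsf9), a costimulatory receptor of activated T cells, was lower by 0.32 ± 0.12. Tnfrsf9 was at 14.4, 12.6, 15.3 and 16.997 CPM in Sham and at 10.1, 11.7, 11.8 and 13.8 in OVX, with OVX replicate 4 within the Sham range. Tnfrsf23, a TRAIL decoy receptor, was at 37.0, 39.1, 41.1 and 33.5 CPM in Sham and at 32.0, 36.6, 30.0 and 32.6 in OVX (log2 difference -0.20 ± 0.10).

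In gingiva no gene of the 32 passed in any of the 3 comparisons of treatments, where 0.0% of all 12680 genes passed (edgeR; 0 also by DESeq2 and limma-voom). OVX and Sham gave 7 genes at an unadjusted p under 0.05 (12.1% of all genes), OVXE2 and OVX 5 (13.9%), and OVXE2 and Sham 2 (7.41%). Between OVX and Sham, 25 of 32 means were higher in OVX, with a median log2 difference of 0.13 against 0.01 over all genes. Groups did not overlap for 3 genes, all higher in OVX (2.22% of all genes, and 3.53% were lower): Cd40, Tnfrsf26 and Tnfrsf4. Between OVXE2 and OVX, 24 of 32 means were lower in OVXE2 (median -0.07), and 4 genes were lower without overlap (2.92% of all genes, and 3.16% were higher): Traf2, Cd40, Tnfrsf4 and Cd27. These comparisons share the OVX libraries. Between OVXE2 and Sham the groups overlapped for all 32 genes (2.26% of all genes were higher and 2.66% lower without overlap). Gingival Cd27 was at only 0.130 to 0.364 CPM per kb over the 12 libraries, so its separation between OVXE2 and OVX rests on a low level.

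CD40, the receptor through which T cells license B cells and dendritic cells, was at 2.79, 2.33, 0.960 and 2.27 CPM in Sham, at 3.50, 3.45, 3.80 and 3.87 in OVX, and at 1.94, 2.25, 1.93 and 2.31 in OVXE2. The OVX libraries were all above the others, and Sham replicate 3 was the lowest of the 12. Cd40 differed by 0.79 ± 0.24 log2 units between OVX and Sham (edgeR adjusted p = 0.376) and by -0.79 ± 0.24 between OVXE2 and OVX (adjusted p = 0.299).

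OX40 (Tnfrsf4), a receptor of activated T cells, was at 1.48, 1.25, 1.65 and 1.66 CPM in Sham, at 1.99, 2.12, 1.85 and 2.41 in OVX, and at 1.08, 1.29, 1.81 and 1.51 in OVXE2. OVX was again the group above the others, with a log2 difference of -0.56 ± 0.19 between OVXE2 and OVX (edgeR adjusted p = 0.304). The adaptor Traf2, which joins many receptors of the family to NF-kB, was at 31.4, 35.6, 32.3 and 31.8 CPM in OVX and at 27.5, 29.5, 27.5 and 26.9 in OVXE2. All OVXE2 values lay below all OVX values, by -0.23 ± 0.06 (adjusted p = 0.260), the smallest p of the family in gingiva.

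Tnfrsf13b was at 0.878, 0.964, 1.60 and 1.35 CPM in gingival Sham and at 1.25, 1.96, 2.71 and 2.33 in OVX (log2 difference 0.79 ± 0.28, edgeR adjusted p = 0.376), with some overlap. Tnfrsf26 was at 1.28, 1.21, 0.586 and 1.08 CPM in Sham, at 1.47, 1.86, 1.58 and 2.00 in OVX and at 1.82, 2.41, 1.27 and 1.27 in OVXE2, so that both ovariectomized groups had higher means than Sham (0.72 ± 0.28 and 0.69 ± 0.27). The ectodysplasin receptor Edar was at 6.10, 5.71, 7.41 and 8.67 CPM in Sham and at 5.17, 5.88, 5.42 and 4.78 in OVXE2 (log2 difference -0.39 ± 0.16). Tnfrsf26, Tnfrsf22 and Tnfrsf23 are related neighbours on chromosome 7. Whether reads were split between them, or left out as matching several of them, was not tested, so their single values are uncertain.

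**Figure D3:**
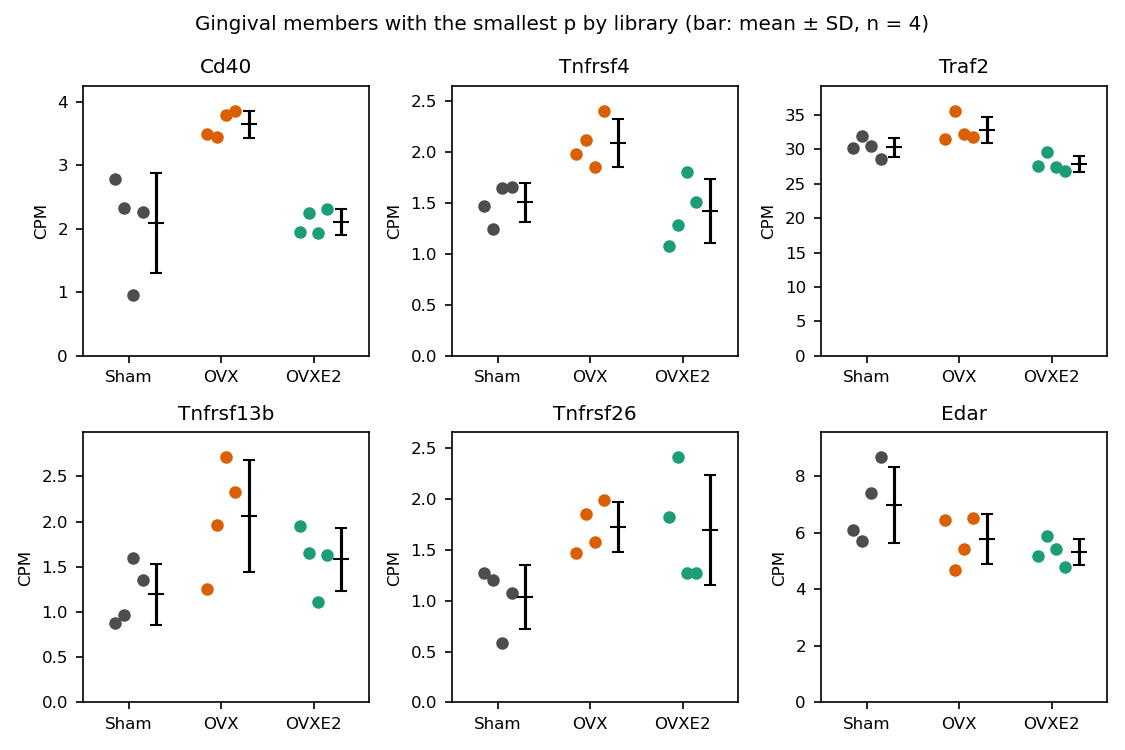
CPM of Cd40, Tnfrsf4, Traf2, Tnfrsf13b, Tnfrsf26 and Edar in each gingival library, with the mean ± SD of 4 libraries beside the points and axes from 0. The 4 OVX points of Cd40 (3.45 to 3.87) and of Tnfrsf4 lie above all Sham and OVXE2 points, and none of the 6 genes passed the test.

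Marker lists of several cell types also differed in their means between the gingival groups, with none of the genes below passing in edgeR. All 8 tested B lineage genes had higher means in OVX than in Sham and lower means in OVXE2 than in OVX. Their summed share was 0.000360 to 0.00510% of counts in OVX, highest in replicate 3. OVX replicate 2 lay inside the Sham range of 0.000250 to 0.000865%, which was highest in Sham replicate 3. In OVXE2 the share was 0.000307 to 0.00189%, and at most 1 of the 9 listed genes was at 0 in a library.

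Of 11 T cell genes, 10 had higher means in OVX than in Sham and all 11 lower means in OVXE2 than in OVX. NK cell genes together took 0.000565 to 0.000876% of counts in OVX, 0.000508 to 0.000555% in Sham and 0.000377 to 0.000458% in OVXE2, without overlap. Of 6 monocyte and macrophage genes, 5 were higher in OVX than in Sham and 5 lower in OVXE2 than in OVX. All 7 nasal gland genes went the other way, lower in OVX than in Sham and higher in OVXE2 than in OVX. Neutrophil genes together took 0.147 to 0.202% of counts in Sham, 0.250 to 0.345% in OVX and 0.249 to 0.334% in OVXE2. Of 6 tested neutrophil genes, 4 were higher in OVX than in Sham and 5 were higher in OVXE2 than in OVX. The part of any of these in the values of Cd40, Tnfrsf4 and Tnfrsf13b was not tested.

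**Figure D4:**
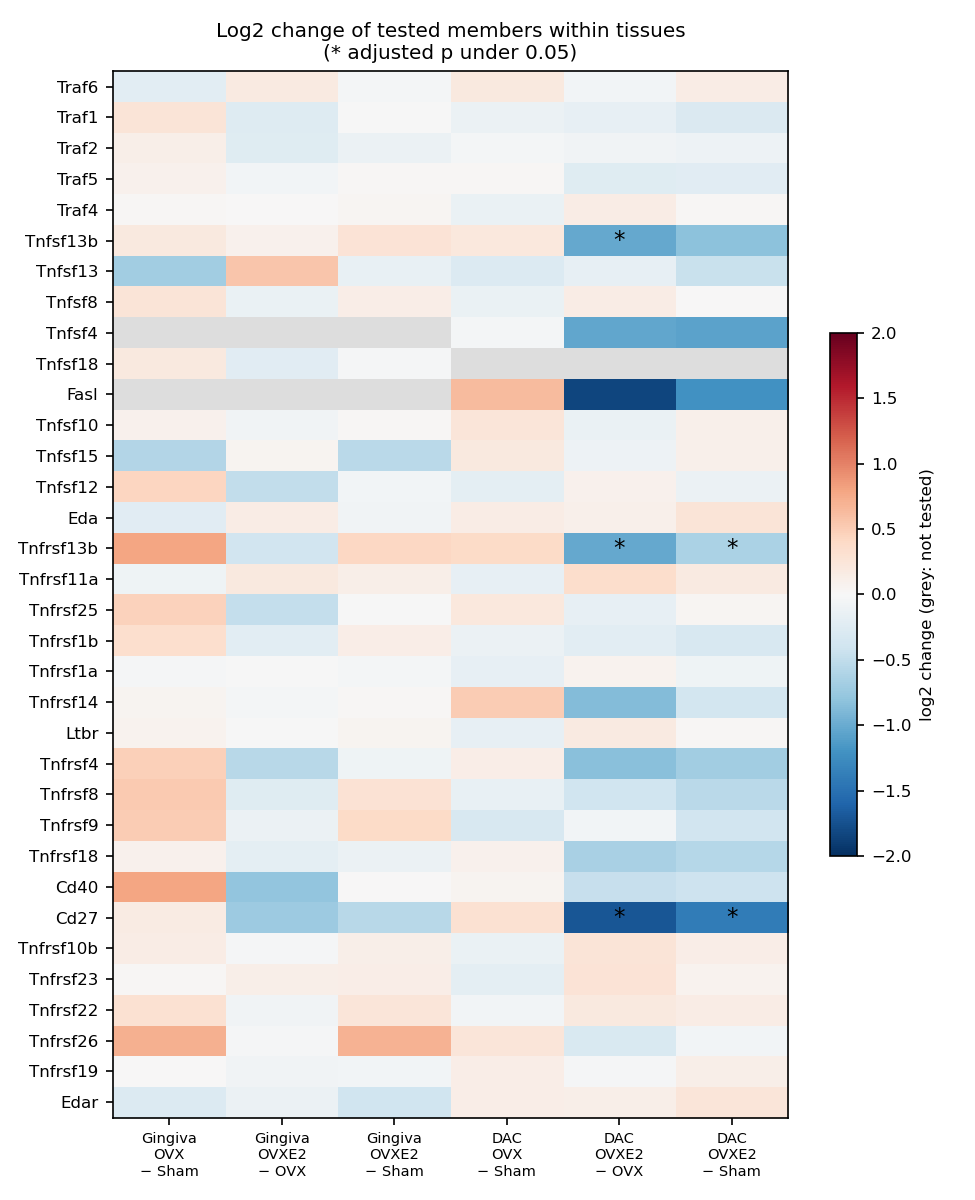
Log2 change of the tested genes (rows, TRAFs at the top, then ligands, then receptors) in the 6 comparisons within tissues (columns), from -2 (blue) to 2 (red), with grey for genes not tested and a star at an adjusted p under 0.05. The 5 stars are Tnfsf13b, Tnfrsf13b and Cd27 for OVXE2 minus OVX and Tnfrsf13b and Cd27 for OVXE2 minus Sham in the dentoalveolar complex.

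Whether these effects differed between the tissues was tested as the change in the DAC minus the change in gingiva. None of the 33 genes passed for any of the 3 contrasts (edgeR smallest adjusted p 0.575, 0.450 and 0.336; 0 also by DESeq2 and limma-voom), where 0.0%, 0.19% and 0.0633% of all 14209 genes passed. At an unadjusted p under 0.05 there were 4, 3 and 5 genes for OVX against Sham, OVXE2 against OVX and OVXE2 against Sham, in that order (8.53%, 8.81% and 7.81% of all genes). For OVXE2 against OVX, the change in the DAC minus that in gingiva was -1.11 ± 0.41 for Tnfsf13b, -0.97 ± 0.39 for Cd27 and -0.63 ± 0.29 for Tnfrsf13b. For OVXE2 against Sham it was -1.01 ± 0.30 for Tnfrsf13b (edgeR adjusted p = 0.336), -1.07 ± 0.41 for Tnfsf13b and -0.73 ± 0.30 for Tnfrsf9. For OVX against Sham it was -0.80 ± 0.30 for Tnfrsf9, -0.72 ± 0.29 for Cd40 and 0.41 ± 0.17 for ectodysplasin (Eda). The falls in the DAC were therefore not shown to differ from the changes in gingiva.

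The tissues themselves differed in most of the family. Over the 3 treatments, 27 of 33 genes passed (81.8%), 21 higher in the DAC and 6 lower, where 84.1% of all genes passed, 43.9% higher and 40.2% lower. The share that passed was close to that of all genes. The counts include Fasl, which passed the filter on low counts only through the DAC, and Tnfsf18, which passed only through gingiva, so their directions follow from the filter. Without them 25 of 31 genes passed, 20 higher and 5 lower. The median log2 difference of the 33 genes was 0.61, against 0.04 over all genes. All 12 DAC libraries lay above all 12 gingival libraries for 12 of the genes (25.8% of all genes) and below them for 3 (23.1%). With 1 treatment at a time, 26 genes passed in Sham (75.1% of all genes), 22 in OVX (72.4%) and 25 in OVXE2 (72.1%).

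Among ligands, Tnfsf12 (TWEAK), a ligand for tissue repair and cell growth, had 7.47, 11.7 and 16.1 CPM per kb as lowest, median and highest of the 12 DAC libraries and 1.40, 2.39 and 4.21 in gingiva. The tissues did not overlap, and the log2 difference was 2.27 ± 0.15 (edgeR adjusted p = 2.93e-12). Tnfsf13 (APRIL), a survival factor of plasma cells, had 0.328, 0.563 and 0.808 CPM per kb as lowest, median and highest in the DAC and 0.470, 0.894 and 1.33 in gingiva. The tissues overlapped, the log2 difference was -0.60 ± 0.16 (adjusted p = 0.00176), and it did not pass in OVX mice alone (adjusted p = 0.518). Tnfsf12 and Tnfsf13 lie 0.465 kb apart on chromosome 11 and a readthrough gene, Tnfsfm13, covers both. Reads that fit several genes were not counted for any gene, so reads may be missing from both and their values are uncertain.

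Tnfsf18 (GITR ligand) had 0, 0.0670 and 0.200 CPM per kb as lowest, median and highest in the DAC and 0.101, 0.288 and 0.507 in gingiva, from 0 to 12 counts in a DAC library. The fitted log2 difference of -1.74 ± 0.38 is given as a value only, since the gene did not pass the filter within the DAC. The same holds for Fasl, which did not pass within gingiva and had 1.02 ± 0.35. Of the other ligands, Tnfsf13b was higher in the DAC by 1.65 ± 0.17, Eda by 1.05 ± 0.07, Tnfsf8 (CD30 ligand) by 0.92 ± 0.20 and Tnfsf10 (TRAIL) by 0.85 ± 0.11.

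Among receptors, the largest difference was in Edar, the ectodysplasin receptor of teeth, hair and skin appendages. Its lowest, median and highest were 1.33, 1.67 and 2.50 CPM per kb in gingiva and 0.0705, 0.145 and 0.220 in the DAC. The tissues were far apart, with an 11.8-fold lower level in the DAC (log2 difference -3.57 ± 0.19, edgeR adjusted p = 1.45e-13). The DAC level lies near the bottom of the order, so the fold is imprecise. Genes of stratified epithelium together took 7.51 to 10.3% of counts in gingival libraries and 0.0899 to 0.625% in DAC ones. Their part in the Edar difference was not tested. The ligand of Edar, Eda, went the other way. GITR (Tnfrsf18) had 2.27, 2.86 and 3.30 CPM per kb as lowest, median and highest in gingiva and 0.929, 1.40 and 2.07 in the DAC (log2 difference -0.96 ± 0.10). The TRAIL receptor Tnfrsf10b was slightly lower in the DAC (-0.40 ± 0.07), with overlap, while its ligand Tnfsf10 was higher.

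TACI (Tnfrsf13b) had the largest difference in the other direction, 5.83-fold higher in the DAC (log2 difference 2.54 ± 0.12, edgeR adjusted p = 2.81e-14). Its lowest, median and highest were 2.10, 3.40 and 5.36 CPM per kb there and 0.323, 0.596 and 1.00 in gingiva. B lineage genes together took 0.00290 to 0.0264% of counts in DAC libraries and 0.000250 to 0.00510% in gingival ones, and the part of this in the difference was not tested.

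Tnfrsf19 (TROY), a receptor of ectodermal and mesenchymal cells, had 45.0, 51.6 and 58.8 CPM per kb as lowest, median and highest in the DAC and 10.5, 12.1 and 13.7 in gingiva (log2 difference 2.11 ± 0.05). RANK (Tnfrsf11a) had 5.54, 6.46 and 9.63 CPM per kb in the DAC and 1.27, 1.79 and 2.25 in gingiva (1.97 ± 0.08). The tissues did not overlap for either gene. Osteoclast genes together took 0.551 to 1.13% of counts in DAC libraries and 0.0295 to 0.0586% in gingival ones, and their part in the RANK difference was not tested.

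CD137 (Tnfrsf9) had 3.63, 4.27 and 5.84 CPM per kb as lowest, median and highest in the DAC and 0.512, 1.101 and 1.56 in gingiva (log2 difference 2.04 ± 0.12), and Tnfrsf26 had 1.34, 2.04 and 2.28 against 0.191, 0.449 and 0.786 (2.00 ± 0.13). Neither overlapped. Tnfrsf14 (HVEM), Cd40, Tnfrsf1b and Cd27 were higher in the DAC by 1.37 to 1.97 log2 units. Tnfrsf1a differed by 0.00 ± 0.04, and Tnfrsf4, Tnfrsf8 and Tnfrsf25 did not pass either.

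Among the adaptors, Traf6, which serves RANK and CD40, was the one lower in the DAC. Its lowest, median and highest were 8.63, 11.6 and 15.7 CPM per kb in gingiva and 3.61, 4.86 and 6.30 in the DAC, without overlap (log2 difference -1.26 ± 0.09, edgeR adjusted p = 8.99e-12). Traf1, an NF-kB induced adaptor, was higher in the DAC by 1.55 ± 0.10, Traf4 by 0.61 ± 0.06 and Traf2 by 0.25 ± 0.04, while Traf5 differed by 0.00 ± 0.06 and did not pass.

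**Figure D5:**
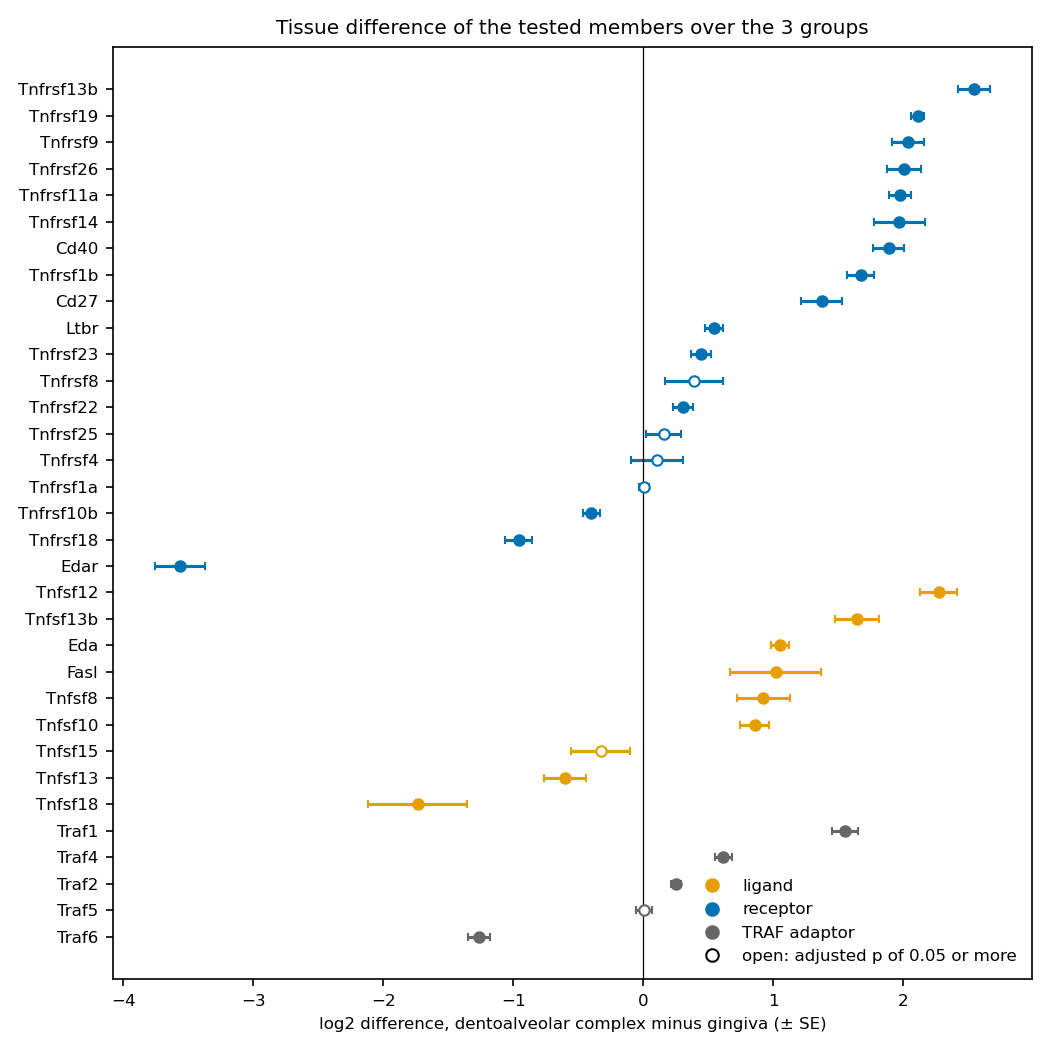
Log2 difference of the dentoalveolar complex minus gingiva over the 3 treatments, with its standard error, for the 33 tested genes grouped as TRAF adaptors (bottom), ligands and receptors (top), with filled points for an adjusted p under 0.05. Fasl and Tnfsf18 passed the filter through 1 tissue only. Tnfrsf13b lies farthest to the right (2.54) and Edar farthest to the left (-3.57).

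The signalling genes behind these receptors were taken from lists. Of 46 genes of adaptors, kinases, NF-kB subunits and NF-kB targets, 37 were listed, and none passed in any of the 6 comparisons of treatments in edgeR or limma-voom, while DESeq2 called 2 for OVXE2 against OVX and 1 for OVXE2 against Sham in the DAC. At an unadjusted p under 0.05, the 37 tested in gingiva gave 6 for OVX against Sham (16.2%, where all genes gave 12.1%), 3 for OVXE2 against OVX (8.11% and 13.9%) and 0 for OVXE2 against Sham (7.41% of all genes). The 36 tested in the DAC gave 0 for OVX against Sham (3.21% of all genes), 3 for OVXE2 against OVX (8.33%, where all genes gave 10%) and 3 for OVXE2 against Sham (8.33% and 8.77%). All 11 listed NF-kB targets had higher means in OVX than in Sham in gingiva, with a median of 0.35 and none passing. Sham replicate 3 stood apart there, with 0.00858% of counts in these genes against 0.0186 to 0.0210% in the other Sham libraries. In the DAC, 8 of 10 tested targets had lower means in OVX than in Sham (median -0.21) and 9 of 10 lower means in OVXE2 than in Sham (median -0.23), again with none passing. Both comparisons share the Sham libraries. For OVXE2 against OVX in the DAC, 6 of the 10 were lower and 4 higher (median -0.045).

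Between the tissues, 17 of the 37 were higher in the DAC and 15 lower, 86.5% in all against 84.1% of all genes. Among those of smallest p, the DAC was higher in the adhesion molecule Vcam1 by 2.86 ± 0.14 log2 units, the iron-binding defence protein Lcn2 by 2.99 ± 0.18 and the necroptosis kinase Ripk3 by 1.1003 ± 0.07.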

How the data were processed

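Libraries were poly(A)-selected and sequenced in pairs of reads, per the labels' protocols. Per the submitters' processing notes, fastp, STAR and DESeq2 were used with build GRCm38 (mm10); their versions and options, and the annotation, are not named there or in the labels. Raw counts per gene are what the authors deposited, unnormalized, for either strand and for each strand. The column for the second read's strand was used, since it held most reads (3.38 to 9.03% lay on the other). GENCODE M21 named the genes and gave exon lengths. The members, lists and tests were chosen with earlier results of these data known.

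Counts were filtered with filterByExpr, TMM-scaled and tested with edgeR 4.0.16 (quasi-likelihood, robust; R 4.3.3) with Benjamini-Hochberg adjustment over all genes and a threshold of 0.05: 12 libraries of a tissue in a fit (9 residual degrees of freedom), or all 24 (18). Promoter letters are from RefSeq. Alternatives were DESeq2 1.42.0, limma-voom 3.58.1, other scaling, filter, strand, samples and a replicate block. The procedure was tested on simulated data with known changes for OVXE2 against OVX. Of 1.5-fold and 2-fold changes it recovered 23.9% and 56.7% in the DAC and 52.2% and 77.6% in gingiva. For the difference between tissues it recovered 19.4% and 50.7%, so many changes of this size would be missed. Members were named if called within a tissue, or as the 3 of smallest p where fewer than 3 were called; between tissues, the 6 called with the largest difference each way. Tnfrsf11a, Tnfrsf18 and Fasl for OVXE2 against OVX in the DAC were chosen after their values were seen. Libraries are biological replicates per the labels, which do not say whether each is 1 animal, so p-values measure the spread between these libraries. No library was a copy of another (chi-square per degree of freedom 18.1 to 392). Some single genes of the lists are not reported here.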

Additional observations from a re-analysis of the deposited data

Results flagged for a closer look

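In 2 of 105 groups of 4 libraries, 1 library stood apart from its group by the ratio of its gap to the group's range (above Dixon's critical value for 4 samples); chance gives about 5% of groups. Eda was at 8.92 CPM in DAC Sham replicate 4 against 7.31 to 7.57 in the other Sham libraries (ratio 0.838). Tnfsf18 was at 0.366 CPM in DAC OVX replicate 4 against 0.0798 to 0.0819 in the others (ratio 0.993), which rests on 2 to 11 counts.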

How the results depend on the processing

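The 39 named log2 changes kept their sign under all 1041 values of the alternatives. Of these, 984 stayed on the same side of the threshold, 56 lost the call and 1 gained it (Tnfsf13b for OVXE2 against Sham in the DAC, by DESeq2). Of 10 counts of called genes, those for gingiva, for OVX against Sham in the DAC, for the 3 differences of effects and for the tissues (27, range 22 to 28) stayed within 1.5 times.

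For OVXE2 against OVX in the DAC, 3 genes were called, 2 to 3 without each library in turn, 0 among libraries with the higher other-strand share and 1 without the 4 richest in brain neuron genes. For OVXE2 against Sham in the DAC, 2 were called, 0 to 1 without each library, 0 with limma-voom, no filter, only the 2 groups compared, the higher other-strand share, or without the neuron-rich or nasal-rich libraries, and 1 with counts of either strand. Fewer libraries or more genes enter several of these fits; otherwise the cause was not tested.

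Same-numbered libraries correlated with a median of -0.0035 in gingiva, 0.005 in the DAC and -0.027 across tissues. The labels do not say whether same-numbered libraries come from the same mouse, and such correlations cannot decide it. The main fits, also those over all 24 libraries, used no pairing and treated each library as independent. The replicate block gave 2 called genes for OVXE2 against OVX and 0 for OVXE2 against Sham in the DAC, 0 in the other within-tissue comparisons and effect differences, and 27 between tissues. Genes under about 20 counts a library, such as Fasl, Cd40lg, Tnfsf4, Tnfsf15 and Tnfsf18, are the least precise.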
